A study of Mus musculus with 4 samples.

Results

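The genes described here encode 8 receptors of myeloid cells and an adaptor through which several of them signal. They are the C-type lectins Clec4d, Clec4e, Clec5a and Clec7a, the Trem receptors Trem1 and Trem3, the Pilr pair Pilra and Pilrb1, and the adaptor gene Tyrobp. They were taken as all probe sets annotated to exactly 1 gene symbol that is one of these 9 names. This gave 11 probe sets for 9 of 9 genes, out of 45037 probe sets and 18193 genes on the array. Clec4e and Trem1 have 2 probe sets each, and the others have 1.

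Innate immune cells carry receptors that bind sugars, lipids of microbes or products of damaged cells. Many of these receptors have no signalling tail of their own and instead pair in the membrane with an adaptor that carries an immunoreceptor tyrosine-based activation motif (ITAM). Tyrobp, also called DAP12, is such an adaptor, and Fcer1g, the Fc receptor gamma chain, is another. The phosphorylated motif recruits the kinase Syk, and Card9 and its partners carry the signal on to cytokine genes. Paired receptors such as Pilra and Pilrb1 have like binding domains and opposite effects: Pilra inhibits and Pilrb1 activates.

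Gene expression was measured on 4 single-colour Affymetrix arrays of mouse cells, 1 for each sorted population, with no genetic or drug treatment named in the labels. Granulocytes were marrow cells of high side scatter that stained brightly for Gr-1, and 99.4% of them were granulocytes by morphology. The other 3 populations were enriched for c-Kit and depleted of cells with lineage antigens: hematopoietic progenitor cells (HPC) were Sca-1 negative, long-term repopulating stem cells (LT-HSC) were Sca-1 positive and CD34 negative, and short-term repopulating stem cells (ST-HSC) were Sca-1 positive and CD34 positive. RNA came from 50 to 200 cells of each type, taken in packs of 50 or 100, and went through 2 rounds of linear amplification. For the strain, age and sex of the mice and for any pooling over animals, nothing was given in the sources used here.

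With 1 array per population no test was possible, and no difference below has a replicate check. Signals under 120.1, the median of all values, were treated as unmeasured and set to this floor before log2. Where the lower side of a ratio lay under the floor, the ratio is given as "at least". A gene was called where it differed at least 4-fold in 1 direction from each array it was compared with. The only measure of error was the SD of a difference between probe sets of 1 gene, which was 0.85 log2 units for granulocytes against the other arrays (2875 genes), 0.57 for HPC against the stem cell arrays and 0.64 for LT-HSC against ST-HSC. This SD was taken on the mean difference over the compared arrays, for probe sets at or above the floor on all of them. It was not computed for smallest differences or for signals under the floor. It covers neither the spread between animals nor that between amplifications.

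Markers of the sorted cells matched the granulocyte label and showed 1 array that stands apart. All 10 measured neutrophil markers exceeded each other array at least 4-fold in granulocytes. The neutrophil proteins S100a8, Ngp, Lcn2, Ltf and Camp nevertheless had signals of 6783, 5299, 3332, 2502 and 2451 in LT-HSC, against 4.8 to 170 in HPC and ST-HSC. Not all neutrophil markers did so. Mmp8, Mmp9 and Cxcr2 were under the floor in LT-HSC, and Csf3r was lowest there (550.7 against 1017 in HPC and 2404 in ST-HSC). Of the 10 markers 6 were called higher in LT-HSC than in ST-HSC and 1 lower, against 1.19% and 0.682% of all genes. The pre-B cell genes Vpreb1 and Igll1 had 4815 and 4234 in LT-HSC, 2532 and 1862 in HPC and 15.0 and 29.1 in ST-HSC. Stem cell markers such as Procr were bright in LT-HSC (6229) and ST-HSC (1931). The counts of the 9 genes and of the pathway lists in granulocytes, and of the 9 genes in HPC, are therefore also given without the LT-HSC array.

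All 9 genes had their highest signal in granulocytes, and 9 of 9 were at least 4-fold higher there than on each of the other 3 arrays. Over all genes 2.79% were called higher in this comparison (507 of 18193). The 9 genes were chosen with earlier results of these data known, so their counts beside these shares are a description and no independent support. By probe set the count was 11 of 11, against a share of 2.26% over all probe sets. The median over the 9 genes of the mean log2 difference was 6.09, against 0 over all genes. At 32-fold, 5 of 9 genes passed, against 0.324% of all genes. Without the LT-HSC array the count stayed at 9 of 9, against 3.31% of all genes. Whether a lower signal reflects fewer cells with the transcript or less RNA per cell cannot be told apart in these bulk samples.

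**Figure D1:**
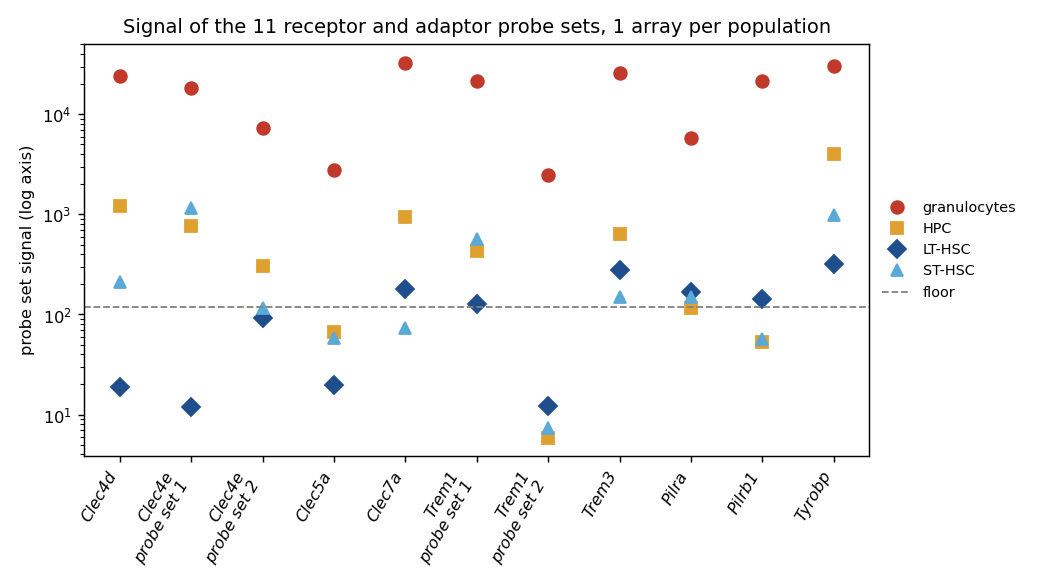
Signal of each of the 11 probe sets (y axis, log scale, arbitrary array units) on the 4 arrays, 1 point per array, with the dashed line at the floor of 120.1. The granulocyte point is the highest for all 11 probe sets, from 2450 for the second Trem1 probe set to 32780 for Clec7a, and the other 3 arrays spread from 4052 for Tyrobp in HPC to under the floor.

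The lectin receptors came first by number, with 4 genes on chromosome 6. Clec4d and Clec4e lie next to each other there; their products, MCL and Mincle, bind glycolipids of mycobacteria, and Mincle signals through the Fcer1g adaptor. The 250 bases before the start of the RefSeq transcript are shown for Clec4d, Clec4e and Clec5a, the lectin genes in which a searched motif was found (mouse build GRCm38.p6, 5′ to 3′ on the strand of the gene). Capitals mark matches, on either strand, to the motifs of myeloid factors given with the searches of start windows. The windows lie at chr6:123261857-123262106 on the plus strand for Clec4d, at chr6:123289872-123290121 on the minus strand for Clec4e and at chr6:40585806-40586055 on the minus strand for Clec5a.
Clec4d: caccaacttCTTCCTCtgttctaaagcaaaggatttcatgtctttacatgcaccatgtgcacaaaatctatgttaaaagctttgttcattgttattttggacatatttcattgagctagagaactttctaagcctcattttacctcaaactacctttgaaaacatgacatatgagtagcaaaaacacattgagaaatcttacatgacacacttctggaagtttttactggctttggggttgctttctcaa
Clec4e: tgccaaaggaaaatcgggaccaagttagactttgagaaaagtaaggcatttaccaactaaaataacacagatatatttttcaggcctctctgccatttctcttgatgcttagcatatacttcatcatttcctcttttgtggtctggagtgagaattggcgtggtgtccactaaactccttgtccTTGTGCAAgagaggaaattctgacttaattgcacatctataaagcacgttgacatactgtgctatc
Clec5a: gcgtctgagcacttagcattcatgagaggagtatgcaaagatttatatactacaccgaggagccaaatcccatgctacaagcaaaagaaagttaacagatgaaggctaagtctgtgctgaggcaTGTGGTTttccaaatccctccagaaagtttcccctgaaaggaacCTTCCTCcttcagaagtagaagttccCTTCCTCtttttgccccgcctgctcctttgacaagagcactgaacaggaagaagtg

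The Clec4d signal was 23940 in granulocytes and 1226.5 in HPC, with 209.7 in ST-HSC and 19.0 in LT-HSC. It was highest in granulocytes by 19.5-fold over HPC, the next array, and under the floor in LT-HSC. Its probe set has the suffix _s_at, which marks probes that can match more than 1 transcript. The first Clec4e probe set read 18375 in granulocytes and 773.9 in HPC, with 1154.9 in ST-HSC and 11.8 in LT-HSC. Here ST-HSC was the next array, 15.9-fold below granulocytes. The second probe set read 7248 and 307.2, with 116.4 and 91.5, so it put granulocytes 23.6-fold above HPC and both stem cell arrays under the floor. The probe sets gave 1 direction for granulocytes and disagreed about ST-HSC.

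Clec5a, also called MDL-1, pairs with Tyrobp and was the lectin gene seen on the granulocyte array alone. Its signal was 2801 in granulocytes. The HPC, ST-HSC and LT-HSC arrays read 66.9, 57.8 and 19.9, all under the floor, which puts granulocytes at least 23.3-fold higher. Clec7a encodes dectin-1, the receptor for fungal beta-glucan, which carries a tyrosine motif in its own tail. Its signal was 32780 in granulocytes and 941.8 in HPC, with 73.4 in ST-HSC and 178.4 in LT-HSC. Granulocytes were 34.8-fold above HPC, the next array, and ST-HSC lay under the floor.

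Trem1, which amplifies inflammatory responses through Tyrobp, and Trem3, a related mouse receptor that also uses Tyrobp, lie in 1 cluster on chromosome 17. The first Trem1 probe set read 21453 in granulocytes and 429.8 in HPC, with 562.8 in ST-HSC and 127.9 in LT-HSC. Granulocytes were 38.1-fold above ST-HSC, the next array, and LT-HSC lay just above the floor. Its second probe set had 2450 in granulocytes and 5.9 to 12.3 elsewhere, which puts granulocytes at least 20.4-fold higher. The Trem3 signal was 26149 in granulocytes and 643.0 in HPC, with 150.7 in ST-HSC and 280.0 in LT-HSC. It was above the floor on every array, and granulocytes were 40.7-fold above HPC.

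The Pilr pair is neighbouring on chromosome 5, and the stretches before both genes are nearly the same. Of 246 aligned bases of the RefSeq start windows, 242 were identical (98.4%). The 196 of them that lie before both starts are printed because they show how little the pair differs there, with the 4 differing bases in capitals (GRCm38.p6, minus strand, chr5:137836279-137836474 for Pilra and chr5:137858104-137858299 for Pilrb1).
Pilra: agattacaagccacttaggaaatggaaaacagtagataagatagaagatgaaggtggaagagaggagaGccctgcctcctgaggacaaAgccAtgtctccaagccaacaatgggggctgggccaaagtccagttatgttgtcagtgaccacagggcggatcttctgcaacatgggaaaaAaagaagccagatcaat
Pilrb1: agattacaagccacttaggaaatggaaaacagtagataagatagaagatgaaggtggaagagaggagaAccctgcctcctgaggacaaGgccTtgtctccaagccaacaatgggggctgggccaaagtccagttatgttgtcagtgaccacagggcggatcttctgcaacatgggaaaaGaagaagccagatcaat
The window of Pilrb2, a further copy in the same cluster, shared 292 of 300 bases with that of Pilrb1. Pilrb2 was not analysed here, and whether its transcript contributes to the Pilrb1 signal was not tested.

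The Pilrb1 signal was 21590 in granulocytes and 53.6 in HPC, with 56.3 in ST-HSC and 142.0 in LT-HSC. Only granulocytes were well above the floor, and the gene ranked 8 of 18193 by its smallest difference, 7.25 on the log2 scale or 152-fold against LT-HSC. For Pilra it was 5797 in granulocytes and 115.7 in HPC, with 148.5 in ST-HSC and 167.0 in LT-HSC. The 3 other arrays lay within 1.39-fold of each other after the floor, and granulocytes were 34.7-fold above LT-HSC. Both genes of the pair, the inhibitory and the activating one, were thus highest in granulocytes, and neither was called between the other 3 arrays.

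Tyrobp, the adaptor, was the gene with the highest share of its granulocyte signal in HPC. It read 30654 in granulocytes and 4052 in HPC, with 980.6 in ST-HSC and 318.0 in LT-HSC. The 4 arrays thus fall in the order granulocytes, HPC, ST-HSC, LT-HSC, each neighbour apart by at least 3.08-fold and all above the floor. The gap of 7.57-fold between granulocytes and HPC was the smallest that any of the 9 genes had to its next array, and Tyrobp ranked 258 of 18193 in the granulocyte comparison. In HPC its signal exceeded 95.7% of all probe sets.

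**Figure D2:**
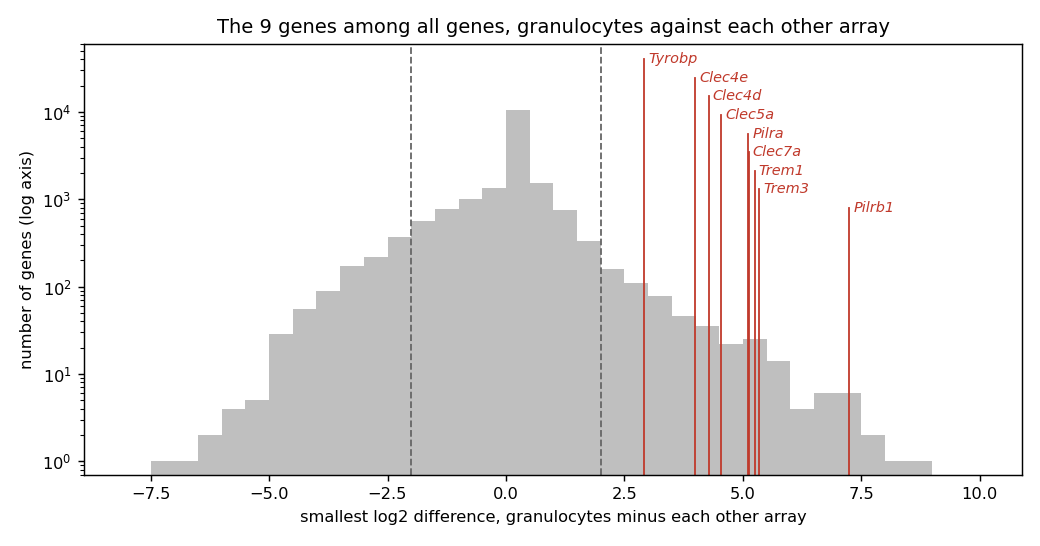
Histogram of all 18193 genes (y axis, number of genes, log scale) by the smallest log2 difference between granulocytes and each of the other 3 arrays (x axis, log2 units), with dashed lines at 4-fold and red lines for the 9 genes, whose heights carry no value. All 9 lie to the right of the 4-fold line, from Tyrobp at 2.92 to Pilrb1 at 7.25.

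The HPC array was set against both stem cell arrays to see where receptor transcripts appear among the c-Kit positive cells. Of the 9 genes, 3 were at least 4-fold higher in HPC than on each stem cell array and none was lower, against 0.275% of all genes higher and 0.33% lower. Clec4d was 5.85-fold above ST-HSC and at least 10.2-fold above LT-HSC. Clec7a was 5.28-fold above LT-HSC and at least 7.84-fold above ST-HSC. Tyrobp was 4.13-fold above ST-HSC and 12.7-fold above LT-HSC. Markers of granulocyte-monocyte progenitors moved the same way: 5 of 8 were called higher in HPC, among them the granule protease genes Ctsg (14683 in HPC against 188.0 and 670.9) and Elane (2181 against 89.3 and 175.2). Their summed signal was 88184 in HPC, 25414 in ST-HSC and 7780 in LT-HSC, with none of the 8 under the floor in HPC, and their part in the 3 differences was not tested.

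The other receptors did not pass between HPC and the stem cell arrays. Trem3 was 2.30-fold higher in HPC than in LT-HSC and 4.27-fold higher than in ST-HSC. With their first probe sets, Clec4e and Trem1 were higher in HPC than in LT-HSC (at least 6.44-fold and 3.36-fold). With the same probe sets ST-HSC lay 1.49-fold and 1.31-fold above HPC. The second Clec4e probe set gave the other order, with HPC at least 2.56-fold above both stem cell arrays. The second Trem1 probe set was under the floor on all of these arrays. Clec5a and both Pilr genes were under the floor in HPC. Without the LT-HSC array, 4 of 9 genes were at least 4-fold higher in HPC than in ST-HSC, Trem3 being the fourth, against 1.08% of all genes. With the floor at the 75th percentile only Tyrobp passed (1 of 9).

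LT-HSC and ST-HSC differed at least 4-fold in 2 of the 9 genes, both higher in ST-HSC, against 0.682% of all genes higher in ST-HSC. Clec4e was at least 9.62-fold higher in ST-HSC and Trem1 4.40-fold. Tyrobp was 3.08-fold higher in ST-HSC, and Clec4d at least 1.75-fold. Clec7a was at least 1.49-fold and Trem3 1.86-fold higher in LT-HSC. Both calls rest on 1 of 2 probe sets, since the second probe sets of Clec4e and Trem1 were under the floor on both arrays, and neither gene passed with the median over probe sets (0 of 9) or with the floor at the 75th percentile (0 of 9).

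By their medians, the 9 genes kept the lowest share of their granulocyte signal in LT-HSC, where the neutrophil markers kept the highest. Single genes went the other way. Of the 9 genes, 5 were lowest in LT-HSC, Clec7a and Trem3 were lowest in ST-HSC, and Pilra and Pilrb1 were highest in LT-HSC among the 3 arrays. Of the neutrophil markers, Mmp8, Mmp9 and Cxcr2 were under the floor in LT-HSC. Csf3r had its lowest share there, at 3.24 percent. As a percent of the granulocyte signal of the same probe set, the 9 genes had a median of 2.46 in HPC (0.248 to 13.2), 2.06 in ST-HSC (0.224 to 6.29) and 0.658 in LT-HSC (0.0642 to 2.88). The 10 neutrophil markers had medians of 0.132, 0.199 and 4.16 percent in that order, with summed signals of 440422 in granulocytes and 1593 in HPC, and of 23298 in LT-HSC against 3042.5 in ST-HSC. These percents use the signals as deposited, without the floor. Under it lay 7 of the 10 neutrophil markers in HPC, 7 in ST-HSC and 3 in LT-HSC. Of the 9 genes, 6 were at or above the floor on each of these arrays, but not the same 6. Only Trem1, Trem3 and Tyrobp were at or above it on all 3. S100a8 stood at 11.9 percent and Ngp at 10.1 percent of their granulocyte signals in LT-HSC. Clec4d and Clec4e stood at 0.0794 and 0.0642 percent there, both from signals under the floor, which were treated as unmeasured elsewhere. In HPC Tyrobp stood at 13.2 percent and Clec4d at 5.12 percent, and S100a8, under the floor there, at 0.197 percent. Csf3r, the receptor for granulocyte colony-stimulating factor, was the neutrophil marker above the receptors in ST-HSC, at 14.2 percent.

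**Figure D3:**
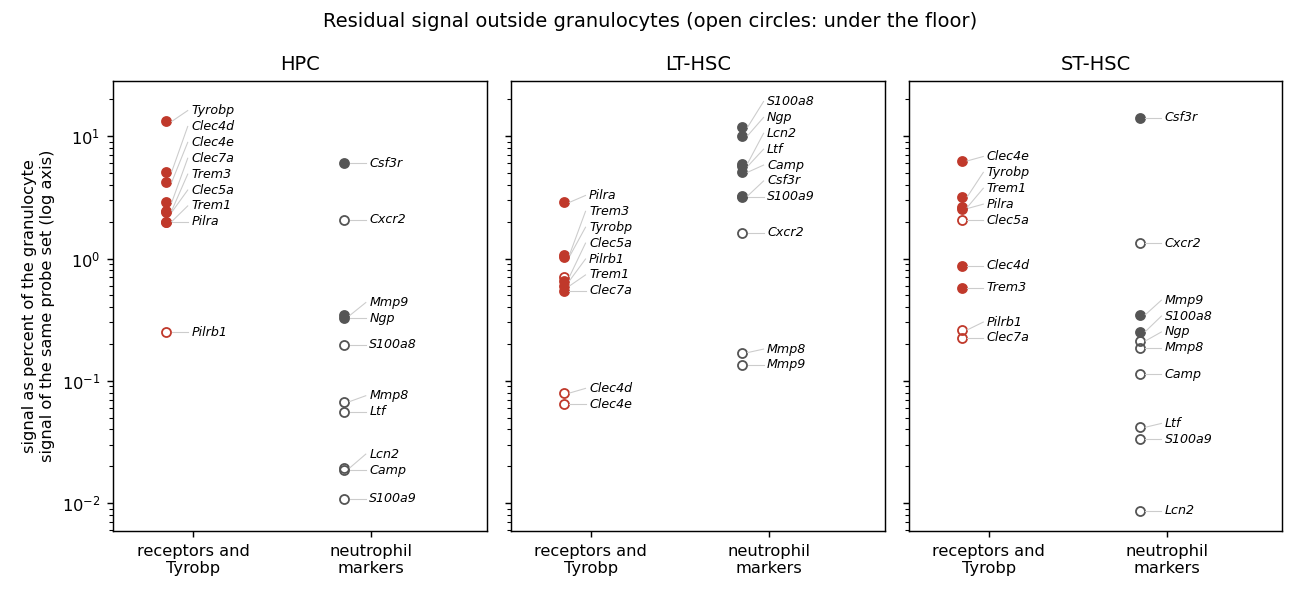
Signal on the HPC, LT-HSC and ST-HSC arrays as a percent of the granulocyte signal of the same probe set (y axis, log scale), for the 9 genes (red, representing probe sets) and the 10 neutrophil markers (grey), with open circles for signals under the floor. In LT-HSC the neutrophil markers stand at up to 11.9 percent (S100a8), with 3 of the 10 under the floor, while the 9 genes reach 2.88 percent. In HPC Tyrobp stands at 13.2 percent, above every neutrophil marker.

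Monocyte and macrophage markers were checked because monocytes carry most of these receptors too. None of 12 measured markers was at least 4-fold higher in granulocytes than on each other array, against 2.79% of all genes. A count of 0 among 12 is near this share and says little about monocytes. In granulocytes 7 of 12 lay under the floor. Short of 4-fold, Adgre1 (1102) and Cd68 (1640) were 3.70-fold and 2.19-fold higher in granulocytes than in HPC, the next array. Ccr2 was 1.66-fold higher, with probe sets that disagreed. Cx3cr1 went the other way, with 34.4 in granulocytes and 310.9 in HPC. The complement genes C1qa, C1qb and C1qc, with Marco and Mertk, lay under the floor on all 4 arrays. Csf1r, which binds the macrophage growth factor, read 13089 in granulocytes and 11928 in HPC, with 522.8 in ST-HSC and 209.8 in LT-HSC. F13a1 read 151.1 and 2111, with 297.6 and 138.5. Csf1r and F13a1 were the 2 of 12 markers called higher in HPC, as were Clec4d, Clec7a and Tyrobp, and their part in those 3 differences was not tested. Of the 9 measured NK and T cell markers, a lineage that also uses Tyrobp, 0 were called in granulocytes or HPC in either direction. Over all genes 2.79% were higher and 5.22% lower in granulocytes, and 0.275% higher and 0.33% lower in HPC. A count of 0 among 9 is near these shares and says little about such cells.

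Other genes of the same pathways were taken as 7 lists, of which 93 of 108 genes were measured. The lists too were chosen with earlier results of these data known, so their counts are a description. In granulocytes 21 of these 93 genes (22.6%) were at least 4-fold higher than on each other array and 3 (3.23%) lower, against 2.79% and 5.22% of all genes. Without the LT-HSC array the counts were also 21 and 3, against 3.31% and 6.29% of all genes. After scaling to the hybridization controls 80.1% of all called genes were lower in granulocytes, against 65.2% as deposited. With that scaling 17 list genes (18.3%) were called higher and 5 (5.38%) lower, against 1.88% and 7.56% of all genes. The genes at the cell surface and the adaptors made up most of the higher ones, with 14 of 21.

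Among other C-type lectins 4 of 16 were higher in granulocytes and none lower, with a median log2 difference of 0.34. Clec4n, which encodes the fungal receptor dectin-2 and lies next to Clec4d, had 4400 in granulocytes and 53.3 to 70.5 elsewhere, at least 36.6-fold lower. Olr1, the neighbour of Clec7a and receptor for oxidised lipoprotein, had 2676 and 29.7 to 63.8, and Clec1b had 1071 and 9.6 to 85.4. Clec4a2, an inhibitory lectin, was at least 7.23-fold higher with 1 probe set and at least 168-fold with the other, at 20141 against 5.3 to 34.9.

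Of the other Trem, Cd300, Sirp and Siglec receptors 8 of 15 were higher in granulocytes and none lower (median 2.83). Sirpb1a, an activating partner of Tyrobp, had 5878 in granulocytes and 7.6 to 24.9 elsewhere. Cd300lf, an inhibitory receptor, had 9843 and 222.0 to 256.8, Cd33 had 9137 and 299.5 to 484.1, and Cd300ld 2613 and 71.8 to 184.5. Cd300lb, which pairs with Tyrobp, read 13249 in granulocytes and 2357 in HPC, with 588.9 in ST-HSC and 84.3 in LT-HSC, the same order as Tyrobp. It was the single list gene called higher in HPC than in both stem cell arrays (1 of 93, against 0.275% of all genes). The call lay at the threshold, with HPC 4.00-fold above ST-HSC. Trem2, a Tyrobp receptor of macrophages, had 132.7, 154.8, 85.8 and 114.3 and was not called in any comparison.

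Of 4 other measured adaptors 2 were higher in granulocytes and none lower. Fcer1g, the partner of Mincle, read 14155 in granulocytes and 1088 in HPC, with 307.6 in ST-HSC and 277.5 in LT-HSC, a smallest log2 difference of 3.70. Hcst, which encodes DAP10 and is the gene next to Tyrobp, had 2257 in granulocytes and 209.4, 244.1 and 273.3 elsewhere, 8.26-fold above the next. Cd247, an adaptor of the T cell receptor, was under the floor in granulocytes at 21.8.

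For the intracellular steps the counts were near those over all genes (2.79% higher and 5.22% lower). Of 26 measured kinases and scaffolds 1 was higher and 2 lower in granulocytes (median 0.17), and of 14 phosphatases and ubiquitin ligases 1 was higher and 1 lower (median 0.16). Syk had 8423 in granulocytes and 3321, 3966 and 3230 elsewhere, 2.12-fold above the next array, with 2.09-fold to 3.47-fold for its other probe sets. Fgr, a Src family kinase, was 21.0-fold higher at 5849 and Dok3, an adaptor that restrains ITAM signals, 5.97-fold higher at 2350. Ptpn6, the phosphatase that inhibitory receptors recruit, was 2.13-fold higher at 7410. On the lower side Relb, a subunit of NF-kB, had 65.0 in granulocytes and 597.0 to 1949 elsewhere. Plcg1 and Cblb were called lower with 1 of 3 probe sets each, and not with the others. Lyn, Card9 and Nfkb1 were not analysed here.

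Of 5 measured ligand genes 1 was higher, Pglyrp1, a peptidoglycan-binding granule protein reported to bind Trem1. It had 4486 in granulocytes and 12.7 to 25.3 elsewhere, at least 37.3-fold lower. Among 13 cytokine genes that such receptors can induce 4 were higher and none lower (median 0.51). They were Il1b (33532 against 159.7 to 198.6), Cxcl2 (34434 against 539.8 to 2348), Cxcl1 (1299 against 144.6 to 187.2) and the inflammasome gene Nlrp3 (2826 against 215.8 to 491.4). Il6, Il1a and Il10 were under the floor in granulocytes. Between LT-HSC and ST-HSC 2 of 93 list genes were higher in each direction, Blnk and Npdc1 in LT-HSC and Cd300lb and Cxcl2 in ST-HSC, against 1.19% and 0.682% of all genes.

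**Figure D4:**
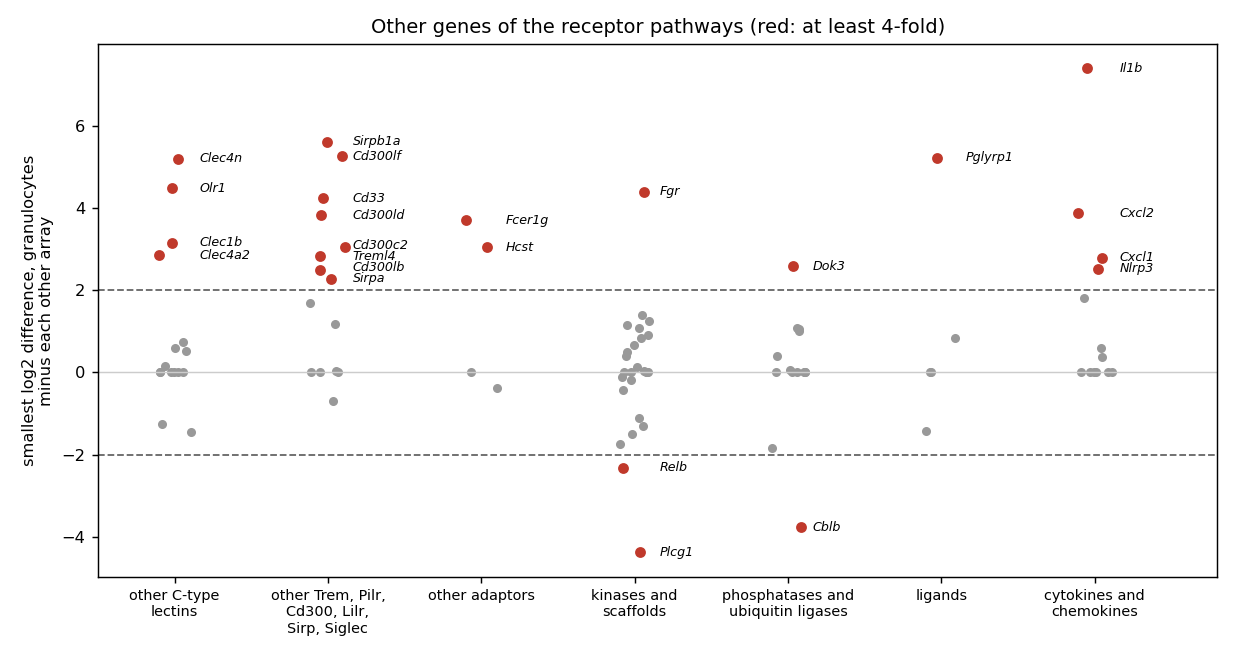
Each point is 1 of 93 measured genes of the 7 lists (x axis, spread sideways for legibility) at its smallest log2 difference between granulocytes and each other array (y axis, log2 units), with dashed lines at 4-fold and called genes named in red. Receptors and adaptors lie above the line in 14 cases and none below it, while most kinases, scaffolds and phosphatases lie between the lines.

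The genes nearest to each of the 9 in shape over the 4 arrays were found by the distance between log2 profiles centred on their mean, among 8575 genes, as a description. The nearest to Tyrobp was Cd300lb (distance 0.57 log2 units), followed by Mpeg1 (0.67) and Tlr2 (1.04). The nearest to Clec4d was Igsf6 (0.80), to Clec7a Adam8 (0.84) and to Trem3 again Adam8 (0.48), followed by Cybb (0.50). Slc11a1 was nearest to Trem1 (0.78) and Myo1f to Clec4e (1.30). For Clec5a, Pilra and Pilrb1, which had little signal outside granulocytes, the nearest were Olr1 (0.06), Bst1 (0.26) and Il1b (0.17), but any gene bright in granulocytes and under the floor elsewhere can come close to these.

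Start windows were found for 7 of the 9 genes in the RefSeq table (GRCm38.p6), with 2 overlapping ones for Clec7a. They were searched on both strands, over the 250 bases before the start, for 4 motifs of factors that act in myeloid cells. The PU.1 core GAGGAAG was found in 3 of 7 genes, Pilra, Clec5a and Clec4d, and in 10.6% of all 32851 windows. Clec5a held it 2 times, from 82 to 76 and from 56 to 50 bases before the start, besides the RUNX letters TGTGGTT, which 4.4% of all windows hold. The C/EBP letters TTGCNNAA were found in 3 of 7, Pilra, Pilrb1 and Clec4e, and in 9.56% of all windows; the matches of Pilra and Pilrb1 lie in the shared stretch and are 1 sequence. The AP-1 letters TGANTCA were found in 0 of 7, against 6.75% of all windows. These are matches of letters and show no binding.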

How the data were processed

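Each of the 4 mouse populations had 1 single-colour Affymetrix array, per the labels. The deposited values are probe set intensity, linear by their range. Which software summarised the probes was not given in the sources used here. On every array the 2% trimmed mean was 500.00, so values were used as deposited. Median signals were 114 to 132, and 48.7% to 52.5% of probe sets lay above the floor. Precision is limited by the number of arrays.

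Of 45101 probe sets, 64 controls were left out. GEO's platform annotation gave 34945 a single symbol and 932 several; 34741 of the former were found in RefSeq (GRCm38.p6), used for names and start windows. Of several probe sets of a gene, the one of highest mean log2 signal stood for it. Members and lists were chosen with earlier results of these data known. Named were all 9 genes, and up to 4 genes per list, direction and comparison by size. Also named were 9 fixed partners, genes among the nearest 3 profiles and defining markers. Vpreb1, Igll1, Il6, Il1a, Il10, Mcpt8, Cxcr2, Adgre1, Cd68, Ccr2 and Cx3cr1 were named after their values were seen. The code was run on simulated data with independent noise on each array. That run checked the code and not the calls made here, since it modelled neither amplification nor mixing of cells. Alternatives covered the floor, pseudocount, scaling, probe set choice, dim genes and threshold. Software was Python 3.11.15 with pandas 2.3.3, numpy 2.4.6, matplotlib 3.10.9 and scipy 1.17.1.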

Additional observations from a re-analysis of the deposited data

How the results depend on the processing

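Over 14 alternative settings, 2 of them (probe sets chosen after the floor, and leaving out the LT-HSC array) added after seeing the data, all measured members stayed at least 4-fold higher in granulocytes; at an 8-fold threshold 8 of 9 did, without Tyrobp, and without _x_at and _s_at probe sets Clec4d could not be measured. Members called in HPC numbered 1 with the floor at the 75th percentile and 0 at 8-fold. Those higher in ST-HSC than in LT-HSC numbered 0 with that floor and with the median over probe sets, and 1 at 8-fold and after scaling to the hybridization controls. List genes lower in granulocytes numbered 6 (6.45%) with the floor at the 25th percentile, against 7.61% of all genes. With a pseudocount of 16 in place of the floor they also numbered 6, against 7.34% of all genes. At 2-fold 11 (11.8%) were lower, against 12.6% of all genes. With the median over probe sets 1 (1.08%) was lower, against 2.89%. After scaling to the hybridization controls 5 (5.38%) were lower, against 7.56%. The list shares thus lay below those over all genes. Of all genes, 401 were lower with the high floor and 525 with the median over probe sets; at 2-fold 1587 were higher and 2288 lower, at 8-fold 240 and 361. The causes were not tested, apart from the thresholds and floors, which by construction change what can be called. The smallest log2 difference of Pilrb1 in granulocytes ran from 5.65 to 7.59, that of Clec5a from 2.70 to 5.39 and that of Tyrobp from 2.29 to 3.05. No paired analysis was possible because each population has 1 array. Signals under the floor on at least 1 array limit the differences between HPC, LT-HSC and ST-HSC for the members other than Trem1 (first probe set), Trem3 and Tyrobp.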

Other observations

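A few receptor genes were lower in granulocytes than on each other array without being called at 4-fold. Cd69, an early activation antigen of the lectin family, read 3425 in granulocytes and 9325 in HPC, with 14062 in ST-HSC and 9684 in LT-HSC. Clec2i, whose product is a lectin-like ligand, read 78.3 and 1014.9, with 284.9 and 341.2 in the same order. Its granulocyte signal was under the floor, which puts it at least 2.37-fold lower. Treml1, a receptor of platelet granules, read 82.0 and 617.5, with 287.4 and 195.5. It too was under the floor in granulocytes, at least 1.63-fold lower. Siglecf, a receptor of eosinophils, was not among these genes. It had 246.3 in HPC and 12.4 to 115.0, all under the floor, on the other arrays. The basophil protease gene Mcpt8 had 1096 in HPC against 10.5 to 126.4. It was the only 1 of 9 measured eosinophil, basophil and mast cell markers called higher in HPC, against 0.275% of all genes. Under the floor in HPC lay 4 of the 9. Of the genes named in this paragraph, only Mcpt8 was called at 4-fold, in HPC.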
